A study of Mus musculus with 23 samples.

Results

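The cytoplasmic ribosomal protein genes were examined in mouse embryonic stem (ES) cells given an activator form of serum response factor (SRF). Members were the probe sets paired with 1 gene symbol that starts with Rpl or Rps and a digit, or with Rplp, leaving out the Rps6k kinases. This rule took 45 of 12502 probe sets, for 35 of the 8132 genes with a probe set of 1 symbol, of which 18 encode proteins of the large subunit and 17 proteins of the small subunit. The reference gene table holds 90 protein-coding genes with such symbols, so most are not measured by a member. A further 9 probe sets pair a matching symbol with a pseudogene or copy, among them those of Rpl5, Rps6 and Rpl13, and lie outside the rule.

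Each array measured total RNA of 1 of 4 ES cell lines, taken 72 hours after transfection with 1 of 3 plasmids. The lines were E14wt, which is wild type, E99, whose labels read +/- or -/+, and E81 and E100, both -/-, and the gene behind these signs is not named in the labels. The plasmids were an empty vector, SRFdM-VP16, which the labels call a control, and SRF-VP16, which joins SRF to the VP16 activation domain. The 23 arrays made 12 groups of 2, with a single array for E100 with vector. The labels speak of duplicates without saying whether these were separate cultures, so the p-values rest on a spread between arrays that may be technical. Each genotype but -/- is a single line, so that line and genotype cannot be told apart there, and the share of cells that took up a plasmid is not given in the sources used here.

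Ribosomal proteins coat the ribosomal RNA of the small and large subunits and are needed in equal numbers. Their messages are among the most abundant in growing cells, and in mammals many start with a C followed by a run of pyrimidines, the terminal oligopyrimidine (TOP) tract through which growth signals control their translation. ES cells divide fast and make many ribosomes. Ribosomal protein genes often serve as loading controls, and their promoters are known for GC-rich sequence, few TATA boxes and sites for GABP and YY1.

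RefSeq start-site windows (GRCm38.p6, 250 bases before to 50 after the annotated start) were found for 29 of the 35 genes, 38 windows in all. The 50 bases around the start, 35 before it, are shown first for some of the bright members whose windows hold a TOP-like tract. Rpl19 and Rps24 also hold one and are not shown. Next come Rplp0 and Rps3, which followed the other bright members closely across arrays, and the paralogues Rpl39l and Rps27l. Capitals mark the TOP-like tract, a C followed by at least 4 pyrimidines that begins within 5 bases of the annotated start.
Rps10, chr17:27635230-27635279, minus strand: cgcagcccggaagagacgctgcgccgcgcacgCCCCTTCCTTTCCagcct
Rps18, chr17:33955651-33955700, minus strand: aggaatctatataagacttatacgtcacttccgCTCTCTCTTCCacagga
Rpl7a, chr2:26910772-26910821, plus strand: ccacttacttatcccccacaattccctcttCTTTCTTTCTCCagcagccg
Rpl13a, chr7:45128731-45128780, minus strand: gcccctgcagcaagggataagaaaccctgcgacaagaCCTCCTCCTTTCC
Rplp0, chr5:115559432-115559481, plus strand: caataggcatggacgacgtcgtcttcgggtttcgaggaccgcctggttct
Rps3, chr7:99483695-99483744, minus strand: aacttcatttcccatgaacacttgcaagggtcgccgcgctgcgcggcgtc
Rpl39l, chr16:10170193-10170242, plus strand: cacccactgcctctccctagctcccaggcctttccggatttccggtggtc
Rps27l, chr9:66946051-66946100, plus strand: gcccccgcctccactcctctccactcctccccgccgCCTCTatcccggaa

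A TOP-like tract was found in 12 of the 38 windows, or 31.6%, against 18.3% of the 32851 windows of all genes. The GABP-type motif CGGAAG, searched on both strands, was in 21 windows (55.3%) against 16.9% of all. Its reverse complement can overlap a pyrimidine tract. The YY1-type motif CCATCTT, on both strands, was in 9 windows (23.7%) against 6.34%, and TATAAA in the 50 bases before the start was in none, against 2.63%. A CArG box, the motif SRF binds, was in 1 window, that of Rpl10a, which encodes a large-subunit protein (2.63% of the windows, against 1.63% of all). It is shown in capitals with 10 bases on each side, and its first base lies 182 bases before an annotated start of the gene.
Rpl10a, chr17:28328279-28328308, plus strand: gggctcatcaCCAAATTAGGcgatgacgga
These matches are descriptions of the sequence, and no binding was measured. In Rpl10a itself the change with SRF-VP16 over the 4 lines was 0.06 ± 0.10 on the log2 scale (SE, 95% interval -0.15 to 0.27).

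The 45 probe sets fell into a bright and a dim class with none between. The 21 bright ones, for 20 genes, had mean intensities over the 23 arrays from 11484 for Rpl13a to 35562 for Rpl7. The 24 dim ones ran from -327 for Rpl35a to 1605 for Rps27l, and 7 of them had means at or below 0. The bright class held small-subunit proteins (Rps3, Rps3a1, Rps4x, Rps4l, Rps7, Rps10, Rps18, Rps19, Rps24 and 2 probe sets of Rps28), large-subunit proteins (Rpl6, Rpl7, Rpl7a, Rpl8, Rpl10a, Rpl13a, Rpl19, Rpl37a, Rpl41) and the stalk protein Rplp0. Of the probe sets outside the rule, 8 of the 9 were also bright, with means up to 29613.

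**Figure D1:**
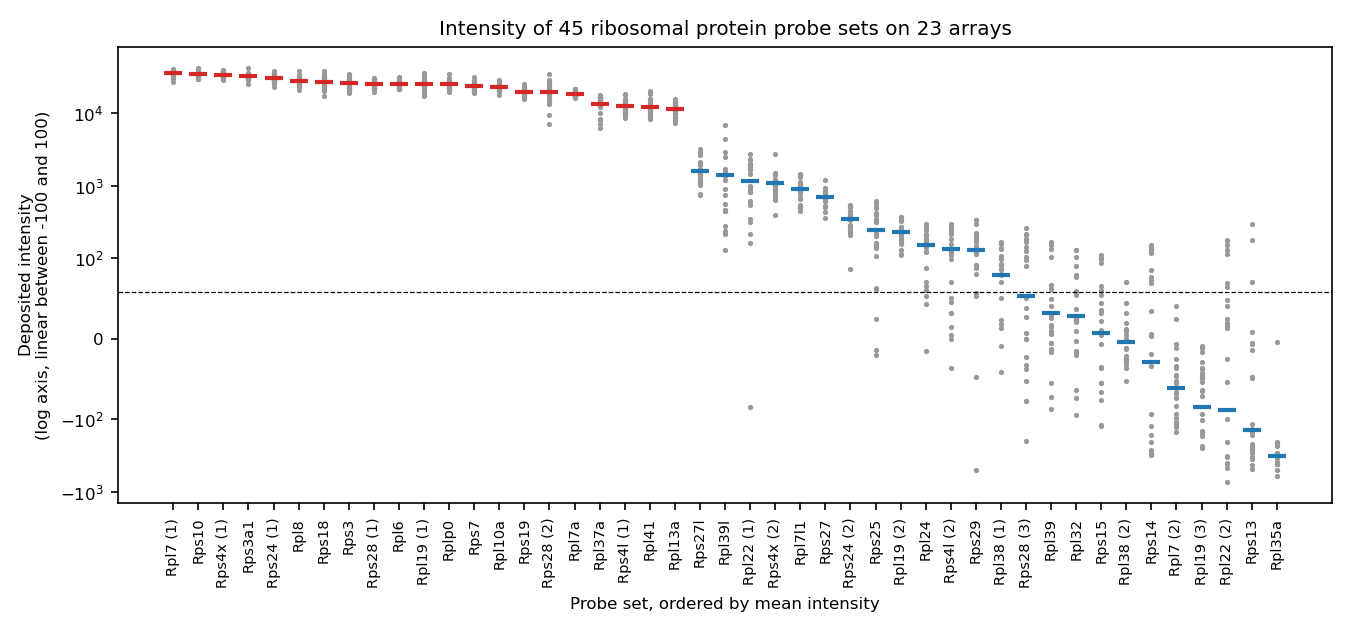
Deposited intensity (log axis, linear between -100 and 100) of the 45 probe sets, with a grey point for each of the 23 arrays and a bar for the mean, red for the bright class and blue for the dim class; the dashed line is the floor of 58. No mean lies between 1605 and 11484, and a gene with several probe sets (numbered in brackets) can appear in both classes.

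Brightness depends on the probes as well as on the transcript, and genes with several probe sets show it. Rpl7 read 35562 by its bright probe set and -61 by another. Rps24, a small-subunit protein mutated in Diamond-Blackfan anaemia, read 30694 and 344, and Rpl19 read 25178, 229 and -84.6. Rps28 read 25512, 19686 and 53.1. Of the 8 genes with several probe sets, 6 had members in both classes, and in Rpl22 and Rpl38 all were dim. A dim value is therefore not read as a low transcript level, and no order of levels between genes is drawn. The bright Rps24 probe set and the bright Rpl7 one were designed from the same sequence record, so the name of the first is uncertain. Probe sets ending in _f_at, _r_at or _s_at can hybridise to related transcripts, and ribosomal protein pseudogenes are many. Such are a probe set each of Rps4x, Rpl19 and Rpl38, those of Rpl41, Rpl32 and Rps13, several of Rps28, and the bright ones of Rpl7, Rps24 and Rps4l.

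The bright members were steady. Their coefficients of variation over the 23 arrays ran from 7.59% in Rps4x to 32.1% in Rps28 (second probe set), with a median of 13.1%. Between duplicates the SD on the log2 scale was 0.18 in the median bright member (0.11 to 0.42), against 0.34 in the median of 590 other probe sets with means above 5000 and 0.49 over all probe sets kept. The means of the bright members began at 11484, so these sets were not matched for intensity. Rpl7, the steadiest between duplicates, read 27503 on its lowest array, 35993 on its median array and 40747 on its highest. Rpl7a, a large-subunit protein, ran from 16538 to 22014 with a median of 18327. In both the highest array was less than 1.5 times the lowest.

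Across the series the median intensity of an array lay between 53.5 and 207, and 29.1% of all values were at or below 0. Of 14 ES cell marker probe sets for 13 genes 6 had means above 5000, among them Pou5f1 (5994 to 29982), Sox2 and Zfp42. The median mean of that list was 3095, and Nanog averaged 1129 and Esrrb 91.4. Of 15 fibroblast marker probe sets for 10 genes none had a mean above 5000, and their median mean was -14.7. The highest of these, a probe set of Fbln1, averaged 1138, near the level of Nanog. Between SRF-VP16 and SRFdM-VP16 in the -/- lines 2.82% of all probe sets passed. In the primitive endoderm list 1 of 10 probe sets rose with SRF-VP16 in the -/- lines, Col4a1 (2.68 ± 0.55, adjusted p = 0.017 by limma), and in the ES cell list Klf2 and Fgf4 of 14 probe sets fell. Summed over the list, ES cell markers were 40311 to 86767 with SRF-VP16, 60318 to 113164 with SRFdM-VP16 and 77604 to 111991 with vector. What part the marker changes have in the values of the members was not tested. In such bulk RNA, fewer cells of a type and less RNA per cell cannot be told apart.

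The bright members moved together from array to array. For each array the shift was taken as the median over the 21 bright members of the log2 difference from their own mean over 23 arrays. It ran from -0.32 on the second E81 vector array to 0.37 on the second E100 SRF-VP16 array, and its SD between duplicates was 0.15. On the first of these arrays 3 of the 21 members lay above their own mean, and on the second 19 did. The 590 other bright probe sets went the other way, with a median shift of 0.25 on the first and -0.26 on the second. Over the series the shifts of the members and of the other bright probe sets had opposite signs on 19 of 23 arrays.

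**Figure D2:**
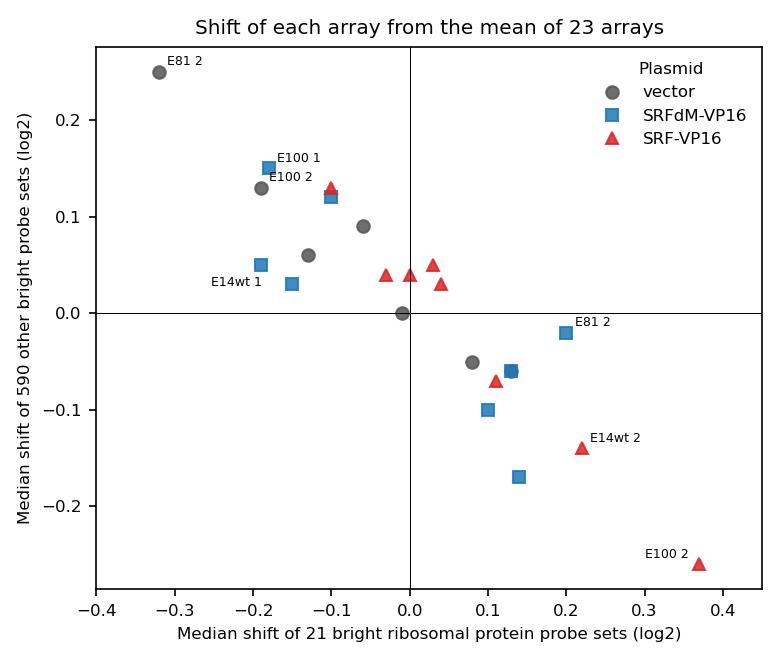
Median shift of the 21 bright ribosomal protein probe sets (horizontal) against that of 590 other bright probe sets (vertical) on each of 23 arrays, both as log2 difference from the mean of 23 arrays; each point is an array, its shape and colour give the plasmid, and arrays with the largest shifts carry line and replicate number. The points run from the second E81 vector array at -0.32 and 0.25 to the second E100 SRF-VP16 array at 0.37 and -0.26.

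Rplp0, the stalk protein that carries the acidic P proteins and helps to recruit elongation factors, was the most typical member. It lay on the same side of its mean as the median of the other bright members on 22 of 23 arrays. Rpl6 and Rpl8, both large-subunit proteins, also did so on 22 arrays, and Rps3, a small-subunit protein near the mRNA entry channel, on 19. In all, 17 of the 21 did so on more than 16 arrays. The points share array, scaling and labelling, so the counts are a description.

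A few members did not follow. Rpl13a, which is also known from the interferon-dependent silencing of translation, lay on the same side on 9 arrays. On the second E81 vector array, where the set was lowest, it read 15939, its highest value. The bright probe set of Rps4l, a relative of Rps4x, can hybridise to related transcripts. It lay on the same side on 4 of 23 arrays, and read 18535 and 17740 on E100 arrays where the set was low. Rpl7 did so on 10 arrays, while the Rps24 probe set designed from the same record did so on 21.

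Signs of RNA quality moved with the shift. The log2 ratio of the 5′ to the 3′ control probe sets of Gapdh was below -0.1 on 4 arrays (-0.94 to -0.2), and there the members' shift was 0.1 to 0.37. It was 0.3 or more on 7 arrays (0.3 to 0.43), where the shift was -0.32 to -0.03. On the 12 arrays between, the shift was -0.1 to 0.2. The E81 SRFdM-VP16 array numbered 1, with the lowest ratio, also had the lowest array median (53.5) and 43.6% of values at or below 0. The part of RNA quality in the members' shift was not tested.

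By plasmid the shifts overlapped. They averaged 0.08 ± 0.15 (SD, n = 8) with SRF-VP16, -0.01 ± 0.16 (n = 8) with SRFdM-VP16 and -0.07 ± 0.16 (n = 7) with vector. Each plasmid's arrays spanned both signs, from -0.1 to 0.37, from -0.19 to 0.2 and from -0.32 to 0.13. Within E100 and within E81 the SRF-VP16 and SRFdM-VP16 shifts did not overlap and went opposite ways. They were 0.04 and 0.37 against -0.18 and -0.1 in E100, and -0.1 and -0.03 against 0.14 and 0.2 in E81. In E14wt and E99 they overlapped. By line the averages were -0.01 ± 0.15 in E14wt (n = 6), 0.04 ± 0.11 in E99 (n = 6), -0.01 ± 0.19 in E81 (n = 6) and -0.01 ± 0.23 in E100 (n = 5), so the means of the lines differed by less than the SD within a line, and those of the plasmids by about the SD within a plasmid or less.

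In the mean of the -/- lines no ribosomal protein gene passed the test between SRF-VP16 and SRFdM-VP16, 4 arrays against 4. In the deposited scaling the changes of the bright ones, as a mean of E81 and E100, were bounded within 2-fold. That mean joins lines in which the shift of the bright members differed oppositely, higher with SRF-VP16 in E100 and lower in E81. The comparison asks what the activator changed where neither allele is wild type. Of the 45 members, 42 had intensities above the 40th percentile of at least 2 arrays and were tested, and the dim Rpl7, Rpl35a and a Rpl19 probe set were not. None of the 42 passed a false discovery rate of 5% in limma, against 2.82% of all 9643 probe sets tested, and 1 had an unadjusted p under 0.05. Without the second E81 SRFdM-VP16 array 1 passed, the dim Rps13 (-1.10, adjusted p = 0.03), whose mean of -141 lay below the floor. The 21 bright members had a median change of 0.07 on the log2 scale, beside 0.04 for all probe sets, and it became -0.01 after quantile normalization and -0.31 after division by the array median, where the median of all was -0.16. In the same comparison 27 of the 590 other bright probe sets passed, 22 of them higher.

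For the mean of E81 and E100 in the deposited scaling the precision for bright members was good, which does not bound the change in either line alone. All 21 had a 95% interval within ±1, that is, inside a 2-fold change, and 14 of them lay within ±0.5, the widest bounds being -0.69 and 0.90. Rplp0 read 20958 and 23411 in E100 and 27532 and 28524 in E81 with SRFdM-VP16, and 26452 and 34467 in E100 and 23425 and 22794 in E81 with SRF-VP16. In E100 both SRF-VP16 arrays were above the SRFdM-VP16 arrays and in E81 both were below them, so the groups overlapped. The change was 0.08 ± 0.15 (interval -0.23 to 0.40, adjusted p = 0.89 by limma). Rps19, a small-subunit protein mutated in Diamond-Blackfan anaemia, averaged 19564 ± 3369 with SRFdM-VP16 and 20923 ± 3143 with SRF-VP16 (SD, n = 4), a change of 0.10 ± 0.13. The tested dim members had a median change of -0.04 with a typical SE of 0.37, and ran from -1.14 in Rps25 to 0.57 in Rps27l.

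Rps25, a small-subunit protein known for its part in internal initiation, read 492 and 346 in E100 and -20 and 577 in E81 with SRFdM-VP16, and 222 and 25 in E100 and 321 and -14 in E81 with SRF-VP16. Values near 0 occurred in both groups, and the change of -1.14 ± 0.94 had an interval of -3.17 to 0.89. Rpl39, whose protein lines the exit tunnel, had group means of 49.2 ± 105 and 3 ± 48.2 (SD, n = 4), at or below the floor of 58, so its change of -0.54 ± 0.36 depends on that floor. For none of the 42 were the 4 SRF-VP16 arrays wholly above or below the 4 SRFdM-VP16 arrays, which was so for 6.06% of all probe sets.

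Over the 4 lines together, 8 arrays against 8, the picture was the same. None of the 42 members passed in limma, against 1.96% of all probe sets, while 5 had an unadjusted p under 0.05. The bright members had a median change of 0.09, beside 0.08 for all probe sets, and it was 0.03 after quantile normalization and -0.32 after division by the array median, where that of all was -0.17. All 21 intervals lay within ±1 and 17 within ±0.5. The 8 against 8 arrays overlapped for every member, while 0.104% of all probe sets did not.

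**Figure D3:**
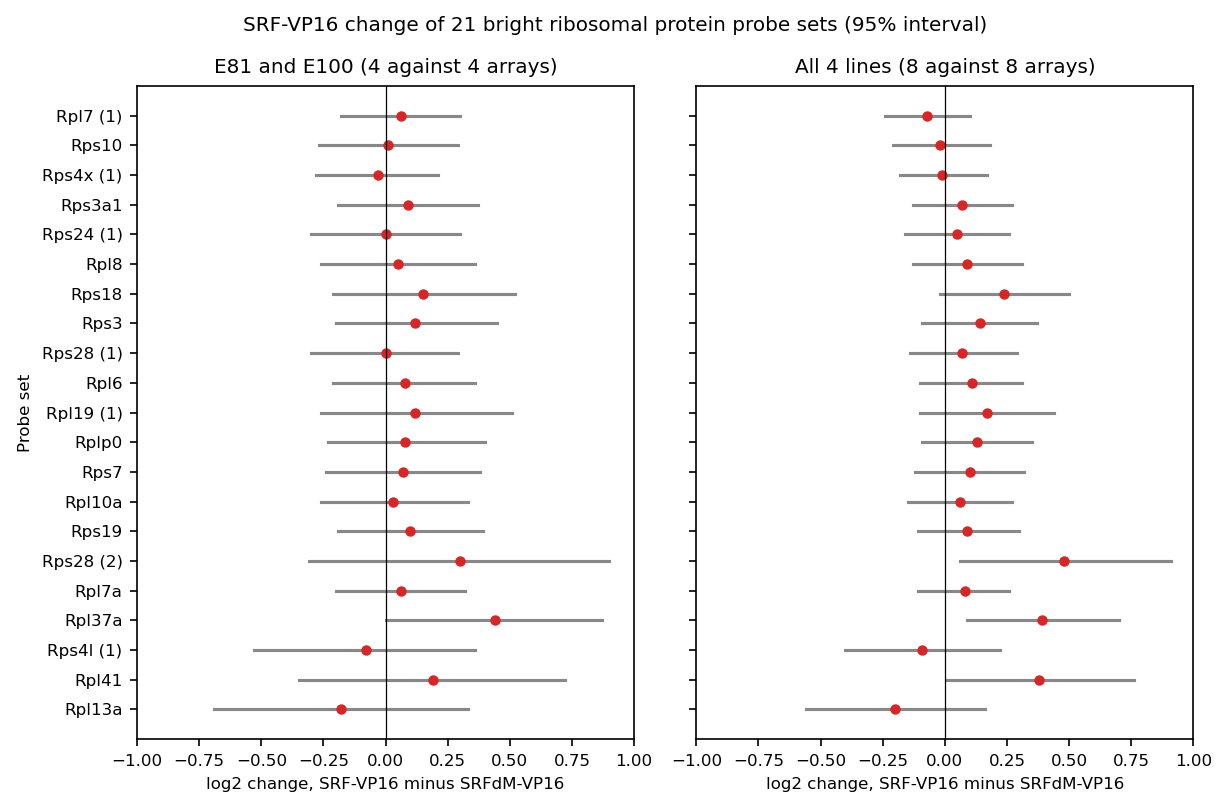
Change of the 21 bright ribosomal protein probe sets with SRF-VP16 (log2, SRF-VP16 minus SRFdM-VP16; points, with 95% intervals as lines) in the -/- lines E81 and E100 (left) and over all 4 lines (right), in the deposited scaling. Changes run from -0.18 to 0.44 on the left and from -0.20 to 0.48 on the right, and none passed the adjusted threshold; the median of the 21 turns to -0.31 and -0.32 when each array is divided by its median.

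The largest changes of bright members over the 4 lines were in Rps28, Rpl37a and Rpl41. The Rps28 probe set that can cross-hybridise ran from 9546 to 23255 (median 16414) with SRFdM-VP16 and from 13999 to 34772 (median 25588) with SRF-VP16. These ranges overlapped, and the change was 0.48 ± 0.20 (interval 0.06 to 0.91, adjusted p = 0.30 by limma). The other bright Rps28 probe set gave 0.07 ± 0.10. Rpl41, the smallest of the ribosomal proteins, gave 0.38 ± 0.17 (adjusted p = 0.36).

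Most other bright members had small changes, with intervals on both sides of 0, given here in the deposited scaling. Among small-subunit proteins, Rps18, which sits in the head of that subunit, ran from 20357 to 32916 (median 24464) with SRFdM-VP16 and from 23790 to 38083 (median 30188) with SRF-VP16. Its ranges overlapped, and the change was 0.24 ± 0.12 (interval -0.02 to 0.50, adjusted p = 0.42 by limma). Rps3 changed by 0.14 ± 0.11, Rps7 by 0.10 ± 0.10, Rps19 by 0.09 ± 0.10, Rps3a1 by 0.07 ± 0.09 and Rps10 by -0.02 ± 0.09.

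Among large-subunit proteins, Rpl8, which lies near the peptidyl transferase centre, read 24608 to 32846 (median 27743) with SRFdM-VP16 and 25131 to 37912 (median 29277) with SRF-VP16. The 8 and 8 arrays overlapped nearly throughout, with a change of 0.09 ± 0.10 (interval -0.13 to 0.31). Rpl19 changed by 0.17 ± 0.13, Rpl6 by 0.11 ± 0.09, Rpl7a by 0.08 ± 0.09 and Rpl7 by -0.07 ± 0.08. Rpl13a had the lowest change of the bright members, -0.20 ± 0.17 (interval -0.56 to 0.16). Rplp0 ran from 20947 to 28524 (median 24842) with SRFdM-VP16 and from 22794 to 34467 (median 25932) with SRF-VP16, a change of 0.13 ± 0.10.

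The dim members gave wider intervals. Rpl22, an RNA-binding large-subunit protein needed in T cell development, ran from -85 to 2739 by its brighter probe set, and had the widest SD between duplicates of the set, 1.85 on the log2 scale. Its change over the 4 lines was 0.26 ± 0.84 (interval -1.56 to 2.07), an interval that holds both a 2-fold rise and a 2-fold fall. Rps27, whose paralogue is Rps27l, was steadier, at 359 to 1207, with a change of -0.13 ± 0.20. Rpl38, known for its part in the translation of Hox messages, lay above the floor on 17 arrays by a probe set and on 2 by the other.

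Rpl7l1, a paralogue of Rpl7, was the dim member with the smallest adjusted p over the 4 lines. With SRFdM-VP16 it ran from 546 to 1477 (median 947), and with SRF-VP16 from 444 to 1383 (median 587). The groups overlapped, since the E99 arrays with SRF-VP16 read 978 and 1383, but the E14wt and E100 arrays with SRF-VP16 (509, 444, 526 and 488) were all below their own controls. In E81 it read 546 and 913 with SRFdM-VP16 and 897 and 648 with SRF-VP16, which overlapped, with a slightly higher mean with SRF-VP16. The change was -0.49 ± 0.17 (interval -0.85 to -0.12, adjusted p = 0.19 by limma). It passed after quantile normalization (-0.62, adjusted p = 0.044) and after division by the array median (-0.89, adjusted p = 0.01), and not with arrays scaled on the other bright probe sets (-0.52, adjusted p = 0.081).

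In E14wt and in E99 alone, 2 arrays against 2, the intervals were wider. None of the 42 passed in E14wt, against 0.0207% of all probe sets, and 4 had an unadjusted p under 0.05 in limma. In E99 none passed, against 0.0415%, and 1 had an unadjusted p under 0.05. Bright members had median changes of 0.16 in E14wt and 0.09 in E99, which division by the array median turned to -0.12 and -0.51, and 19 and 17 of the 21 intervals lay within ±1. The dim Rps4x probe set read 1198 and 1402 with SRFdM-VP16 and 723 and 392 with SRF-VP16 in E14wt, without overlap, a change of -1.28 ± 0.48 (adjusted p = 1 by limma), and the bright one changed by -0.01 ± 0.08 over the 4 lines.

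The difference between the change in the -/- lines and that in E14wt was tested directly. None of the 42 members passed in limma, against 0.083% of all probe sets, and 2 had an unadjusted p under 0.05. Bright members had a median difference of -0.11, beside 0 for all probe sets. Only 1 of the 21 intervals lay within ±0.5, while 18 lay within ±1. The largest difference among the 42 was in the dim Rps28 probe set (-2.26 ± 0.63, adjusted p = 0.44), whose values lay on both sides of the floor. With only the arrays of the comparison it passed (-2.26, adjusted p = 0.003).

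In E100 alone most bright members were higher with SRF-VP16. This comparison was added after the values were seen. With SRF-VP16 19 of the 21 were above SRFdM-VP16, with a median of 0.37 beside -0.14 for all probe sets and -0.28 for the other bright ones. None of the 42 members passed in limma, against 1.18% of all probe sets. An unadjusted p under 0.05 was found for 8 of the 42, 7 of them bright. The share of all probe sets under it is not given here, so that count is a description. Of the 21 bright intervals 13 lay within ±1, the outer bounds being -1.41 and 1.97. Without the second E100 SRF-VP16 array, the array with the largest shift, the median was 0.18 and 15 of 21 were above 0, and without the first it was 0.53. It was 0.10 after quantile normalization and 0.45 after division by the array median. That array's Gapdh ratio was -0.2, against 0.39 and 0.2 on the controls, and its part was not tested. The rise was not shared by E81, where the median shift of the bright members went the other way. It was -0.1 and -0.03 with SRF-VP16 against 0.14 and 0.2 with SRFdM-VP16, and no change in E81 alone was fitted.

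Rpl37a, a zinc-binding large-subunit protein, changed most among bright members of E100. It read 6234 and 8395 with SRFdM-VP16 and 8219 with vector in E100, and 15070 and 16581 with SRF-VP16. The SRF-VP16 arrays were both above all E100 controls, and the change against SRFdM-VP16 was 1.13 ± 0.28 (interval 0.52 to 1.74, adjusted p = 0.079 by limma). Low readings of Rpl37a were not limited to E100. In E99 the SRFdM-VP16 arrays read 10150 and 7240, against 16629 and 16942 with vector, and the second E81 vector array read 8089 beside 16421 on the first. In E14wt all 6 arrays lay between 12426 and 16792. Leaving out either E81 vector array, which only enters the estimate of spread, brought the adjusted p of Rpl37a in E100 to 0.021. It was 0.12 after quantile normalization, 0.1 with scaling on the other bright probe sets and 0.37 after division by the array median, with changes of 1.22, 1.35 and 1.21.

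The clearest difference within the set was between the -/- lines and concerned Rpl39l, a paralogue of the X-linked Rpl39 known mainly from the testis. With the control plasmids it read 4461 (vector), 6996 and 2972 (SRFdM-VP16) in E100, and 444 and 748 (vector), 131 and 228 (SRFdM-VP16) in E81. All 3 E100 arrays were above all 4 E81 arrays. The change was -3.84 ± 0.74 on the log2 scale in E81 against E100, 14.3-fold lower (interval -5.43 to -2.25, adjusted p = 0.027 by limma). It was the only member of 42 to pass, against 0.788% of all probe sets, and all 76 probe sets that passed were lower in E81. That split was 3 higher and 19 lower after quantile normalization, 8 and 14 after division by the array median, and 4 and 56 with scaling on the other bright probe sets.

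The mean readings of Rpl39l in E14wt and E99 lay between those of the -/- lines. With the control plasmids E14wt read 468, 1397, 466 and 1600, and E99 read 1719, 557, 1657 and 1378. In order of their control means the lines were E100 (4810 ± 2035, SD, n = 3), E99 (1328 ± 535, n = 4), E14wt (983 ± 601, n = 4) and E81 (388 ± 273, n = 4). In this order E99 overlapped E14wt and E14wt overlapped E81 (466 to 1600 against 131 to 748), while the 3 E100 control arrays lay above all other control arrays. In comparisons added after the values were seen, E100 against E14wt gave 2.43 ± 0.74 (adjusted p = 0.23, with 0.539% of all probe sets passing in limma) and E81 against E14wt gave -1.40 ± 0.66 (adjusted p = 1, with 0.083% passing). Neither line was shown to differ from wild type in Rpl39l.

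With SRF-VP16 Rpl39l read 2476 and 896 in E100, 240 and 280 in E81, 1190 and 214 in E14wt, and 450 and 1481 in E99. The E100 arrays were again above the E81 arrays, by a change of -2.52 ± 0.93 in E81 against E100 (adjusted p = 0.45 by limma, with 0.456% of all probe sets passing, a comparison added after the values were seen). Of 31 other settings the control comparison passed in 26. It did not pass after division by the array median (-3.15, adjusted p = 0.063), with only the arrays of the comparison (adjusted p = 0.083), or without the first E81 vector (0.081), first E81 SRFdM-VP16 (0.08) or first E100 SRFdM-VP16 array (0.095). The E81 SRFdM-VP16 arrays had medians of 53.5 and 104, against 178 to 191 on the E100 controls, and the median change of all probe sets was -0.27; the part of this in Rpl39l was not tested.

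**Figure D4:**
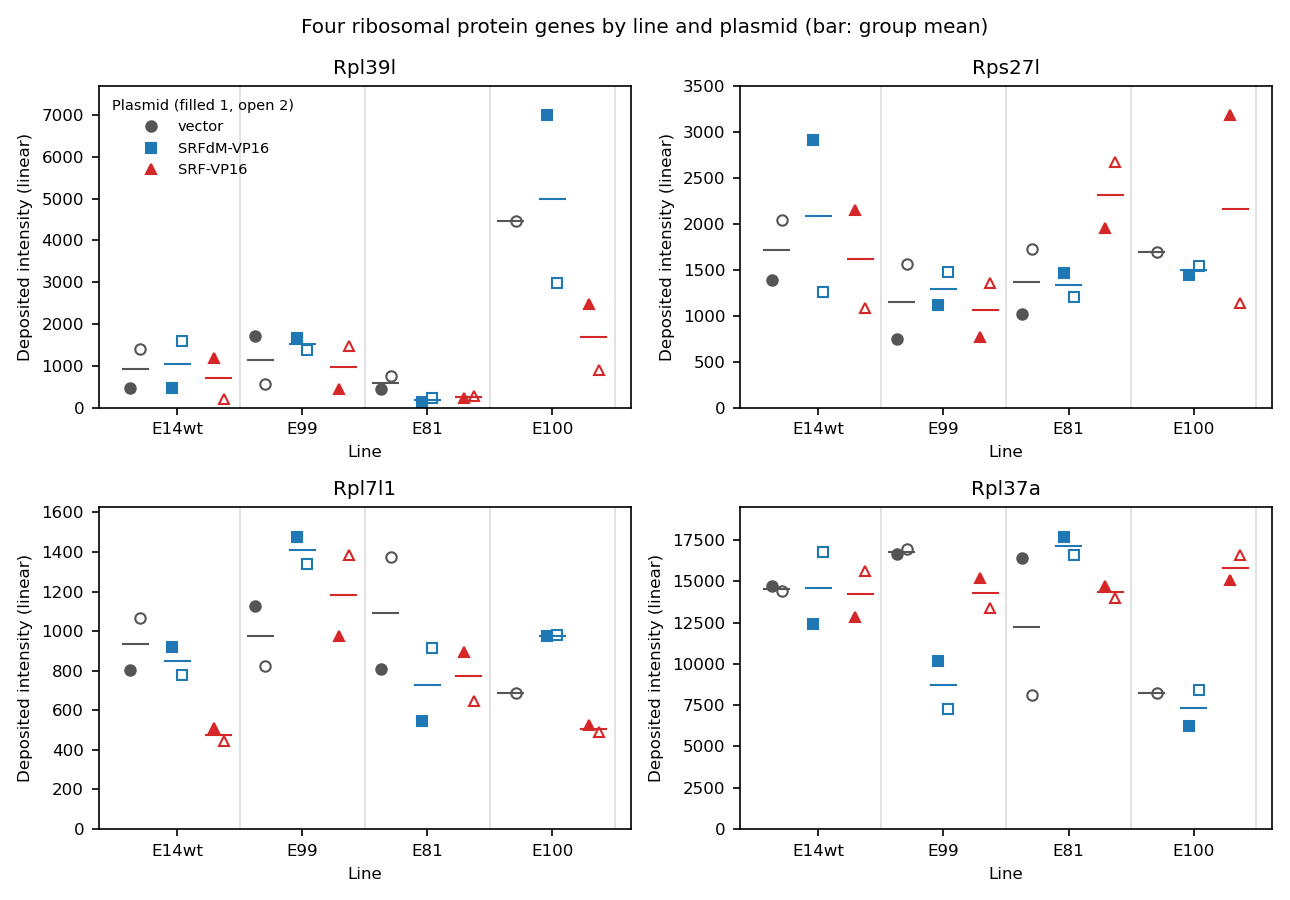
Deposited intensity (linear axis) of Rpl39l, Rps27l, Rpl7l1 and Rpl37a by line and plasmid; points are single arrays (filled, replicate 1; open, replicate 2) and bars are group means. Rpl39l with control plasmids lies at 2972 to 6996 in E100 and at 131 to 748 in E81, and Rpl37a in E100 lies at 6234 to 8395 with the control plasmids and at 15070 and 16581 with SRF-VP16.

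Among other members the lines E81 and E100 mostly overlapped. Besides Rpl39l, the bright Rps4l probe set and the dim Rps28 one had all E81 arrays below all E100 arrays, so 3 of 42 members did not overlap, against 9.47% of all probe sets. Rps4l read 10586, 15185, 9147 and 10293 in E81 and 17740, 18535 and 15311 in E100, a change of -0.64 ± 0.23 (adjusted p = 0.23 by limma). Bright members had a median of 0.20 beside -0.27 for all probe sets, and 18 of 21 were higher in E81. Rpl37a was the largest of these at 0.87 ± 0.22 (adjusted p = 0.11, and 1.12 with adjusted p = 0.014 without the second E81 vector array). The split was 14 of 21 with a median of 0.05 after quantile normalization, 19 of 21 with 0.38 when scaled on the other bright probe sets, and 21 of 21 with 0.89 after division by the array median.

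Ribosomal protein genes were also compared between the control plasmids. For SRFdM-VP16 against vector over the 4 lines, 8 arrays against 7, none of the 42 members passed in limma, against 0.799% of all probe sets, and 5 had an unadjusted p under 0.05. All 21 bright intervals lay within ±0.5, from -0.47 to 0.44, with a median of 0.06 beside -0.20 for all probe sets. Division by the array median gave 0.68 beside 0.25. Without the second E14wt vector array 1 member passed, the dim Rps28 probe set (-1.02, adjusted p = 0.021). The dim probe sets Rps4l and Rpl24 had the largest changes, -0.90 ± 0.43 and -0.90 ± 0.38, and the arrays overlapped for all 42 members (0.145% of all probe sets did not).

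The lines were compared with E14wt to see whether the set depends on genotype. For the -/- lines against E14wt with the control plasmids none of the 42 members passed in limma, against 0.083% of all probe sets, and 1 had an unadjusted p under 0.05. Bright members had a median of 0.02 (-0.01 after quantile normalization and -0.07 after division by the array median), beside 0.09 for all, and 16 of 21 intervals within ±0.5. Rpl37a was the lowest at -0.48 ± 0.18 (adjusted p = 0.64), with 11659 ± 4963 in the -/- lines (SD, n = 7) and 14579 ± 1786 in E14wt (n = 4). The -/- lines differed in it, with 7616 ± 1200 in E100 (SD, n = 3) and 14692 ± 4438 in E81 (n = 4). In comparisons added after the values were seen, Rpl37a against E14wt gave -0.91 ± 0.22 in E100 and -0.05 ± 0.20 in E81. Neither passed in limma. For E99 against E14wt none passed, against 0.0726%, and 0 had an unadjusted p under 0.05. Bright members there had a median of 0.11 beside -0.05, and 16 of 21 intervals lay within ±0.5. Arrays overlapped for all 42 in both comparisons, where 0.436% and 2.21% of all probe sets did not.

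Rps27l, a paralogue of Rps27 known as a target of the p53 protein, gave the largest positive change of a member in the -/- lines in the deposited scaling. With SRFdM-VP16 it read 1443 and 1545 in E100 and 1467 and 1210 in E81, and with SRF-VP16 3185 and 1135 in E100 and 1960 and 2680 in E81. Of these SRF-VP16 arrays 3 were above every one of the SRFdM-VP16 arrays, and the second E100 array was below them all. The change was 0.57 ± 0.40 (interval -0.29 to 1.42, adjusted p = 0.62 by limma), and 0.19 ± 0.43 after division by the array median. In E14wt and in E99 it was -0.33 ± 0.56 each, and the difference between the -/- lines and E14wt was 0.89 ± 0.69 (adjusted p = 1).

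Other genes of protein synthesis and turnover were compared with SRF-VP16 by list, where 2.82% of all probe sets passed in the -/- lines and 1.96% over the 4 lines. Of 66 probe sets of mitochondrial ribosomal proteins, which build the separate ribosome of that organelle, 1 passed in limma, Mrps34 (-0.71 ± 0.17, adjusted p = 0.041), and the median was -0.11. Over the 4 lines Mrpl15 (-0.51 ± 0.12, adjusted p = 0.044) and Mrpl24 (-0.39 ± 0.09, adjusted p = 0.048) fell. Of 50 probe sets of initiation factors, 14 of elongation and release factors, 48 of ribosome biogenesis genes and 41 of proteasome subunits none passed in limma in the -/- lines or over the 4 lines, with 2, 3, 4 and 2 of them at an unadjusted p under 0.05 in the -/- lines and medians in the -/- lines of -0.07, 0.12, -0.18 and 0.05 beside 0.04 for all. Between lines, only the Y-linked initiation factor gene Eif2s3y passed among these lists, lower than in E14wt with the control plasmids in E99 (-3.87 ± 0.37, adjusted p = 0.00043), E81 (-3.99 ± 0.37, adjusted p = 0.0003) and E100 (-3.18 ± 0.42, adjusted p = 0.0023).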

How the data were processed

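Values were 1 intensity per probe set and array, as deposited by the authors on a linear scale. Which software, background subtraction and scaling made them is not given in the sources used here. Precision is limited by how few arrays each group has. How the values at or below 0 arose is not given either. Of the 12502 probe sets, 66 controls were left out; the others carried 1 symbol in 10141 cases, several in 362 and no symbol in 1933, per the platform annotation given for this work, whose symbols can be old.

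Intensities were used without rescaling. Those below the 40th percentile of all values, 58, were set to 58 and put on the log2 scale, and probe sets above the 40th percentile of an array on at least 2 arrays were kept (9643), which removed 3 members. Changes are differences of group means from limma 3.58.1 (R 4.3.3), fitted to all 23 arrays with a mean for each line and plasmid, an intensity trend, 11 residual degrees of freedom, two-sided tests and Benjamini-Hochberg adjustment at 5%. Values are change ± SE unless SD is given. Counts at an unadjusted p under 0.05 stand without the share over all probe sets and are descriptions only. The fit was tested on simulated data of the same 9643 probe sets: 26% of 2-fold and 80% of 4-fold changes were found for the -/- lines (113 calls, 9 of them false), and 40% and 90% over all lines (126 calls, 2 false). The simulated noise was independent between arrays, without shared array shifts or a floor, so rates in the real data can differ. The changed probe sets were drawn from all those kept, so the rates are not those of bright members.

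The members, gene lists and comparisons were chosen with earlier results of these data known. Named were members that passed, the 3 largest changes of each comparison, the 5 highest and lowest means, paralogues, genes with several probe sets and a fixed set; other bright members are named after their values were seen. Alternatives were quantile normalization, division by the array median, scaling on other bright probe sets, other floors and filters, a replicate term, fits to a comparison's own arrays, the vector in place of SRFdM-VP16 and leaving out each array. Comparisons called added were chosen after seeing the data. Start-site windows were from RefSeq (GRCm38.p6); Srf and Zyx were not analysed here. Figures used matplotlib 3.10.9.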

Additional observations from a re-analysis of the deposited data

Results flagged for a closer look

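In 140 groups of 4 to 10 arrays of the named members, 8 had a highest or lowest array far from the others (Dixon's test), where chance flags about 1 in 20 groups. On the second E100 SRF-VP16 array Rps3a1 read 42645, against 29508 to 34535 on the other 7 SRF-VP16 arrays, and Rps19 read 25629, against 19142 to 19593 on the other 3 of the -/- lines. The dim Rps4x probe set read 2744 there, against 906 to 1150 on those 3 and 392 to 1398 on the other 7 SRF-VP16 arrays. These are 4 of the 8, all on 1 array.

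Rps27l read 2920 on the first E14wt SRFdM-VP16 array, against 1113 to 1545 on the other 7. Rpl39l read 4461 on the E100 vector array, against 444 to 1719 on the other 6, and 6996 on the first E100 SRFdM-VP16 array, against 131 to 2972 on the other 7. Rpl7l1 read 546 on the first E81 SRFdM-VP16 array, the lowest of the -/- lines with that plasmid, where the others read 913 to 980.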

How the results depend on the processing

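Of 582 counts and medians recomputed under other settings, 557 stayed within their margin (1.5 times a count, or 0.14 for a median, the median SD between duplicates). The reported medians over the 42 members were smaller in size than 0.14, so a change of sign can lie within the margin. Of 8346 recomputed values of single members, 554 had the other sign. Division by the array median moved most and turned the sign of several medians: the median over the 42 members became -0.31 in the -/- lines, -0.15 in E14wt, -0.48 in E99, -0.31 over all lines, 0.62 for SRFdM-VP16 against vector, 0.28 for E99 against E14wt and 0.73 for E81 against E100, while the medians of all probe sets became -0.16, -0.09, -0.3, -0.17, 0.25, 0.07 and 0.2. With scaling on the other bright probe sets E81 against E100 gave 0.22. Counts of members that passed became 1 in the -/- lines and 1 in the difference between -/- and E14wt with only the arrays of the comparison (the dim Rps28 probe set), 1 over all lines with quantile normalization and with division by the array median (Rpl7l1), and 0 for E81 against E100 with division by the array median. The cause was not tested. Leaving out 1 array at a time gave 0 to 2 calls for E81 against E100, 0 to 1 in the -/- lines and for SRFdM-VP16 against vector, and 0 in the other 6 comparisons. For E81 against E100 the second call was the dim Rps28 probe set without either E14wt vector array, Rpl37a without the second E81 vector array and Rps13 without the second E81 SRFdM-VP16 array, and there was no call without the first E81 vector, first E81 SRFdM-VP16 or first E100 SRFdM-VP16 array. The medians then ranged from -0.04 to 0.13 in the -/- lines, 0 to 0.2 in E14wt, -0.07 to 0.23 in E99, 0.02 to 0.11 over all lines, -0.01 to 0.05 for SRFdM-VP16 against vector, -0.04 to 0.09 for -/- and 0.03 to 0.17 for E99 against E14wt, 0.01 to 0.13 for E81 against E100 and -0.22 to 0.06 for the difference. Leaving out the only E100 vector array leaves comparisons that use it without a value.

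Counts over all probe sets, the background of the members' counts, depended more on the setting: other settings gave 112 to 347 calls in the -/- lines (272 as reported), 141 to 342 over all lines (189), 0 to 179 for SRFdM-VP16 against vector (77), 22 to 155 for E81 against E100 (76), 0 to 12 in E14wt (2), 0 to 10 in E99 (4), 2 to 82 for -/- (8) and 2 to 30 for E99 (7) against E14wt, and 3 to 19 for the difference (8). Over all lines 173 were higher and 16 lower, against 124 and 218 after division by the array median, and in the -/- lines 239 and 33 became 165 and 119. With the replicate number as a block within lines, 76 became 120 for E81 against E100 and 77 became 2 for SRFdM-VP16 against vector. The labels give groups the same replicate numbers without saying that they pair. Same-numbered arrays deviated together between vector and SRFdM-VP16 and in E81 and E100 (correlations 0.248 to 0.417), and oppositely with SRF-VP16 in E14wt and E99 (-0.349 to -0.253). With the replicate block within lines the members that passed stayed 0, with 1 for E81 against E100, Rpl39l (-4.17, adjusted p = 0.045), and with the block across lines also 1 (adjusted p = 0.042). With the numbers crossed in E14wt and E99, an alternative chosen after seeing the data, 1 and 2 probe sets passed, 0 of them members.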
